A study of Mus musculus with 16 samples.

Results

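Acute phase and complement genes were followed through 16 mouse liver RNA-seq libraries, as a list of 38 genes named by symbol: serum amyloids and pentraxins, carriers and protease inhibitors, metallothioneins, cytokine receptors with their signalling genes, and complement components made by the liver. All 38 were found among the 13006 genes of the deposited table by their Ensembl identifiers, and all 38 passed the filter on low counts. The mice of all 4 groups carried the genotype Humanized PXR-CAR-CYP3A4/3A7, that is, the receptors PXR and CAR, which sense foreign compounds, and the drug-metabolising enzymes CYP3A4 and CYP3A7 are the human ones. EM mice received ethinylestradiol (EE), a synthetic estrogen given here to induce cholestasis, together with MI763F, a compound known here by its code name, in a series whose title concerns CAR ligands. EV mice received EE without MI763F, CM mice received MI763F without EE, and CV mice received the propylene glycol vehicle. EE was injected under the skin at 10 mg/kg for 7 days, and MI763F was given by oral gavage at 2.5 mg/kg for 6 days from day 2. Whether the groups without MI763F were gavaged with its vehicle is not stated in the labels, which give neither the sex nor the age of the animals. Each group had 4 libraries. The labels do not tie each library to a separate animal, so p-values measure the spread between these libraries.

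Library totals ran from 14115384 to 21473227 estimated counts. Levels are given as CPM, counts scaled to a common library size with TMM factors, which correct for differences in composition between libraries. Values for EM, EV, CM and CV are listed in the order of the replicate numbers 1 to 4. The scaling factors were 1.1 to 1.23 in libraries with EE and 0.833 to 0.91 in those without, and scaling by library totals instead moved the median of all genes by 0.49 (log2) in EV vs CV and by 0.38 in EM vs CM. The deposited values appear rescaled by gene length, so no level is compared between genes. Hepatocyte markers, which check the labelled tissue, were all measured (8 of 8), with summed levels of 34553 to 52219.7 CPM in EM, 31124 to 39297 in EV, 81561 to 110627 in CM and 84041 to 109734 in CV.

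The acute phase response is the change in the liver's secreted proteins that follows infection or injury. Interleukin 6 acts through its receptor and STAT3, and interleukin 1 through IL1R1 and NF-kB, and C/EBP factors act with both at the genes of serum amyloid A, haptoglobin and other plasma proteins. Complement is a cascade of plasma proteins, most of them made by hepatocytes: lectins or antibody start it, proteases build a convertase that splits C3, and C5 to C9 then assemble a pore in the target membrane.

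With EE, the 38 genes did not move as a block. In EV vs CV, 6 rose and 11 fell (adjusted p under 0.05 over all genes tested, quasi-likelihood test in edgeR). Those counts are 15.8% and 28.9% of the list, against 25.5% and 24.9% of all genes tested, so the share that rose was below the background and the share that fell was close to it. In EM vs CM, 5 rose (13.2% of the list, against 19.4% of all genes tested) and 12 fell (31.6%, against 18.6%). The median log2 fold change of the 38 genes was -0.35 in EV vs CV, and for EM vs CM it was -0.47, with 0.00 over all genes in both. These comparisons share no library. Of the 17 genes called in each, 16 were called in both and in the same direction, 5 higher and 11 lower. The share of all genes called in both is not given here, so that overlap has no background beside it. The sign was the same for 35 of 38 genes, against 82.3% of all genes. By role, 6 of the 8 genes that start complement or form its convertases fell in EV vs CV, terminal complement genes and cytokine genes were called in both directions, the genes that rose were Saa3, Crp, Lbp, Il1r1, C6 and C8b, and the inducible serum amyloids Saa1 and Saa2 were not called. All EV libraries lay above all CV libraries for 6 genes and below them for 12, against 24.6% and 22.7% of all genes. In EM vs CM the counts were 4 and 8, against 18.6% and 16.8%. Of the 8 hepatocyte markers, 7 fell and Tat rose in both EE comparisons. The summed hepatocyte markers were lower and the summed macrophage and neutrophil markers higher in the libraries with EE (values here and beside Saa3 and the complement receptors), and their part in the differences with EE was not tested.

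**Figure D1:**
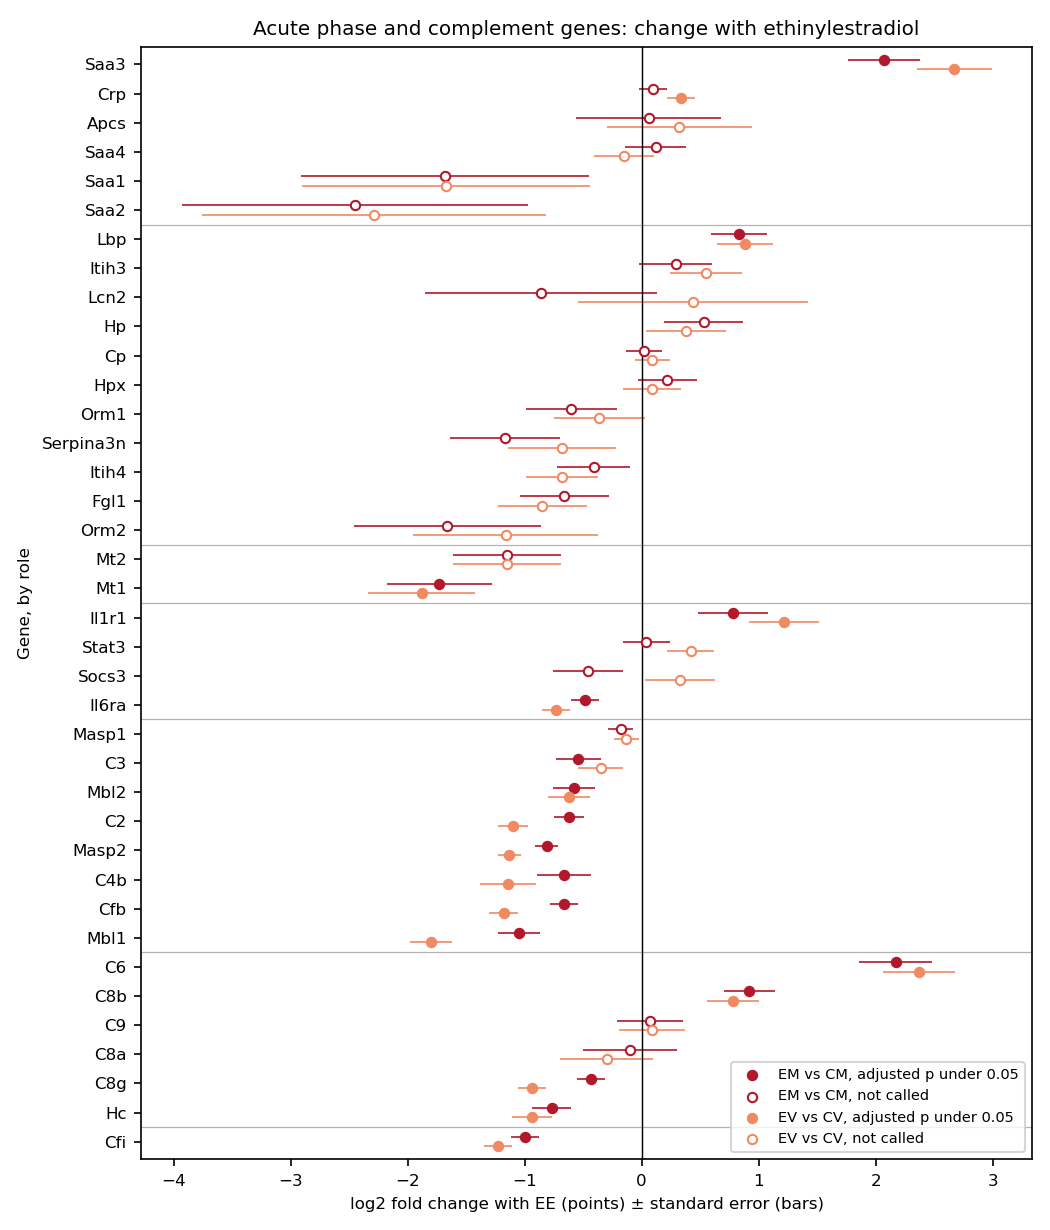
Log2 fold change with ethinylestradiol for each of the 38 genes, ordered by role, in EM vs CM (red) and EV vs CV (orange). Filled points passed an adjusted p of 0.05, open points did not, and bars are standard errors; Saa3 and C6 lie farthest to the right among the filled points, and the widest bars belong to Saa1 and Saa2.

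Among the serum amyloids, Saa3 rose with EE while Saa1 and Saa2, the classical acute phase apolipoproteins of hepatocytes, varied so much between libraries of a group that no change was called. Saa3, which in mice is expressed in macrophages and many tissues beside the liver, and its relatives lie together on chromosome 7. The 250 bases before their annotated starts are shown because Saa3 passed the test and its relatives did not, a difference between genes that was not itself tested, and because Saa1 and Saa2 are near copies. They come from RefSeq on GRCm38.p6, an earlier build than the one used for the data, and read 5′ to 3′ on the gene's strand. Saa3 lies at chr7:46715677-46715926 (minus strand), Saa1 at chr7:46742981-46743230 (minus strand) and Saa2 at chr7:46751583-46751832 (plus strand). Capitals mark matches to TTGCNNAA on either strand, a C/EBP-type motif.
Saa3: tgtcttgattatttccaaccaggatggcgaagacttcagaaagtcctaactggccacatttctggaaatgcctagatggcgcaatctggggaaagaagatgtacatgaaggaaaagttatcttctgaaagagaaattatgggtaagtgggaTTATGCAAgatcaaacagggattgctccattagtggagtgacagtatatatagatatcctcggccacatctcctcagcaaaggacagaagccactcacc
Saa1: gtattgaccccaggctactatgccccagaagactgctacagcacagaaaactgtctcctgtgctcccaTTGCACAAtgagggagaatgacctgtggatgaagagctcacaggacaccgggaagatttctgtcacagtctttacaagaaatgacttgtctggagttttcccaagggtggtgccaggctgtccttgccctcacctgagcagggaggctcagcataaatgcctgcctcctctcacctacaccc
Saa2: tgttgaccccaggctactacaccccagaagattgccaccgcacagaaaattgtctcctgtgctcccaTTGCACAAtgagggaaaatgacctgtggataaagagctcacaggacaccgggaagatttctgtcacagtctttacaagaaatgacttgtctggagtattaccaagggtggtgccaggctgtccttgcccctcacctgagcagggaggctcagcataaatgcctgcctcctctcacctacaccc

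The Saa1 and Saa2 windows were 95.6% identical over 249 aligned bases, and their transcripts 94.4% over 606 bases, so reads could be split between these copies and their separate levels are uncertain. Saa1 and Saa3 windows were 64.4% identical over 216 bases, and their transcripts 67.5% over 560. The C/EBP-type match began 182 bases before the start in Saa1, 183 in Saa2 and 99 in Saa3. The RefSeq table held a promoter (250 bases before to 50 after a start) for 29 of the 38 genes, and the 250 bases before the start were searched. A gene was counted if any of its windows held a match, while the background counts each promoter, so these shares are in unlike units. The C/EBP-type motif was found in 12 of these 29 (41.4%), against 9.56% of 32851 promoters. A STAT-type motif, TTCNNNGAA, was found in 5 (17.2%, against 7.02%), and its stricter form, TTCCNGGAA, in 0 (against 0.913%). An NF-kB-type motif, GGGNNTTCC or a form with 1 more T, was found in 2 (6.9%, against 5.99%). Metal response cores, TGCACNC or TGCGCNC, were in 4 (13.8%, against 21.4%), namely both metallothioneins, Mt1 and Mt2, with C8b and C8g. A full palindromic estrogen response element was in 0, against 0.0639% of promoters. Both strands were searched, the motifs can overlap, and a match describes letters, not binding.

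Saa3 (ENSMUSG00000040026) had 134, 59.4, 68.4 and 118 CPM in EM, 115, 84.9, 164 and 120.2 in EV, 27.8, 20.9, 27.2 and 14.8 in CM, and 23.3, 20.6, 11.3 and 20.7 in CV. Every library with EE lay above every library without it. EV vs CV gave a log2 fold change of 2.67 ± 0.32 (adjusted p = 7.28e-06), and EM vs CM one of 2.07 ± 0.31 (adjusted p = 0.000116). Markers of macrophages moved with it: the summed level of the Kupffer cell and macrophage list (9 of 9 measured) was 1217 to 2011 CPM in EM, 1432 to 1654 in EV, 249 to 532 in CM and 243 to 656 in CV. Their part in the Saa3 difference was not tested. In bulk tissue, a change in the number of cells of a type and a change in RNA per cell cannot be told apart.

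Saa1 (ENSMUSG00000074115) had 3371, 639, 469 and 770.1 CPM in EM, 853, 748, 991 and 1013 in EV, 11755, 169.8, 4220.2 and 699 in CM, and 8822, 273, 342 and 2063 in CV. The EV libraries sat within a 1.35-fold range, while CM spanned 69.2-fold and CV 32.3-fold, and the groups overlapped in every comparison. In EV vs CV its log2 fold change was -1.67 ± 1.23 (adjusted p = 0.279), and in EM vs CM it was -1.68 ± 1.23 (adjusted p = 0.309). Saa2 followed the same libraries, with 1877, 254, 198 and 258 CPM in EM, 382, 352, 495 and 459 in EV, 11241, 77, 2402 and 369.8 in CM, and 7037, 118, 135 and 985 in CV. Its log2 fold changes were -2.29 ± 1.47 (adjusted p = 0.214) and -2.45 ± 1.48 (adjusted p = 0.216). At this spread neither difference could be told from no change. Without the CV, CM and EM libraries numbered 1 together, a choice made after their Saa1 levels were seen, the Saa1 log2 fold change was 0.01 in EV vs CV, that in EM vs CM was -1.44, and neither was called.

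Crp, a pentraxin that is a major acute phase protein in humans and a modest one in mice, had 749, 712, 617 and 763 CPM in EM, 823, 770.4, 765 and 778 in EV, 811, 516, 706 and 614 in CM, and 691, 595, 573.99 and 613 in CV. The EV libraries lay above all CV libraries, and EM overlapped CM. Fitted log2 fold changes were 0.34 ± 0.12 (adjusted p = 0.0247) for EV vs CV and 0.10 ± 0.12 (adjusted p = 0.536) for EM vs CM. The EV vs CV call was lost on leaving out CV library 2, CV library 3 or any EV library, with an adjusted p of up to 0.0761. Apcs, which encodes serum amyloid P, the other pentraxin, was not called in EV vs CV (0.32, adjusted p = 0.698), nor was Saa4, the constitutively made serum amyloid (-0.15, adjusted p = 0.671).

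**Figure D2:**
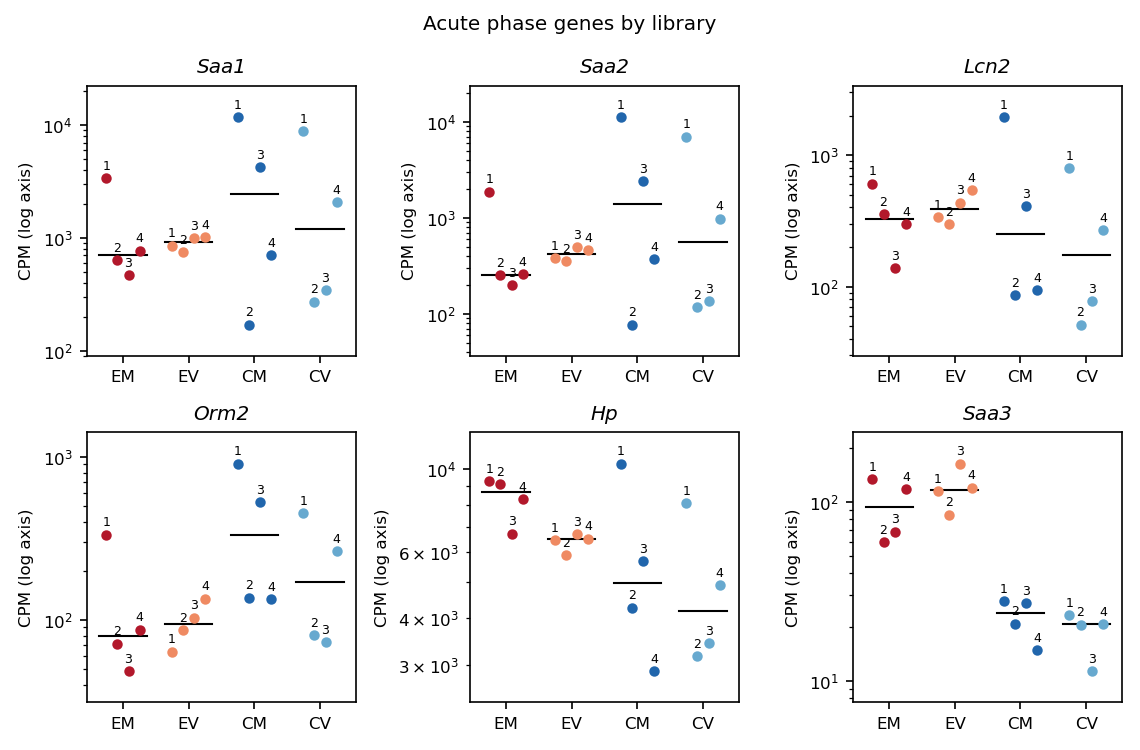
CPM of 6 acute phase genes in each library (points, numbered by replicate), by group from EM, EV and CM to CV, on log axes, with a black line at the group median. Library 1 of CM and of CV is the highest of its group for Saa1, Saa2, Lcn2, Orm2 and Hp, and Saa3 separates the libraries with EE from those without.

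Of the 11 carriers, binders and inhibitors, 1 rose in both EV vs CV and EM vs CM (against 25.5% and 19.4% of all genes) and none fell (against 24.9% and 18.6%). That gene was Lbp, whose product hands lipopolysaccharide to CD14: it had 239, 319.6, 208 and 247 CPM in EM, 216, 208, 227 and 246 in EV, 201, 119, 169 and 81.8 in CM, and 159, 86, 121 and 121 in CV. All EM libraries exceeded all CM libraries, and all EV libraries exceeded all CV libraries. On the log2 scale the difference was 0.88 ± 0.24 (adjusted p = 0.00577) for EV vs CV and 0.83 ± 0.24 (adjusted p = 0.0113) for EM vs CM. The other 10 ran from -1.16 (Orm2, an alpha-1-acid glycoprotein) to 0.55 (Itih3, an inter-alpha-trypsin inhibitor heavy chain) in EV vs CV, with adjusted p from 0.076 (Fgl1) to 0.793 (Hpx). In EM vs CM they ran from -1.66 (Orm2) to 0.53 (Hp), with adjusted p from 0.0634 (Serpina3n) to 0.923 (Cp).

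Haptoglobin (Hp), which binds free haemoglobin, had 9268, 9098, 6729 and 8318 CPM in EM, 6474, 5901, 6701 and 6525 in EV, 10336, 4276, 5692 and 2892 in CM, and 8118, 3179, 3438 and 4908 in CV. The libraries with EE lay in a narrower band than those without, and the highest and lowest of all 16 were both CM libraries. On the log2 scale the difference was 0.38 ± 0.34 (adjusted p = 0.368) for EV vs CV and 0.53 ± 0.34 (adjusted p = 0.24) for EM vs CM. Hp was called higher in both comparisons when the CV, CM and EM libraries numbered 1 were left out together (0.74, adjusted p = 0.0124, in EV vs CV and 0.91, adjusted p = 0.00885, in EM vs CM). That omission takes the highest Saa1 library from CV and none from EV. Lcn2, which binds bacterial siderophores, had 608, 354, 138 and 299 CPM in EM, 336, 297, 436 and 544 in EV, 1946, 86.4, 407 and 94.3 in CM, and 795, 51.2, 77 and 269 in CV. CM library 1 was the highest, as for Saa1, and CV library 2 the lowest, and no change was called (0.44, adjusted p = 0.742, in EV vs CV).

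The table also holds Orm3, Serpina3k and Serpina3m, near relatives of the alpha-1-acid glycoprotein genes and Serpina3n, and C4a, the near copy of C4b. The authors' counting could split reads among such copies, and Orm1 and Orm2 transcripts were 91% identical over 775 bases. Levels of Orm1, Orm2, Serpina3n and C4b are therefore uncertain.

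Of the metallothioneins, small cysteine-rich proteins that bind zinc and copper, Mt1 fell with EE and Mt2 was not called. Mt1 (ENSMUSG00000031765) had 1595, 1449, 570.54 and 889 CPM in EM, 931, 523, 1268 and 984 in EV, 6054, 1403, 4642 and 2866 in CM, and 5478, 2216, 2971 and 2974 in CV. All EV libraries lay below all CV libraries; in EM vs CM the groups overlapped through CM library 2. Expressed as log2 fold changes, EV vs CV gave -1.88 ± 0.46 (adjusted p = 0.00336) and EM vs CM -1.73 ± 0.45 (adjusted p = 0.00778). Mt2 had log2 fold changes of -1.15 ± 0.46 (adjusted p = 0.0511) and -1.15 ± 0.46 (adjusted p = 0.0627), which missed the threshold. All EV libraries lay below all CV libraries for Mt2, and it was called lower in 5 of 17 alternatives in EV vs CV and in 2 of 17 in EM vs CM. Of 11 other metal handling genes tested, 2 rose and 5 fell in EV vs CV, against 25.5% and 24.9% of all genes tested. In EM vs CM, 0 rose and 3 fell, against 19.4% and 18.6%. The smallest p-values in EV vs CV belonged to the copper importer Slc31a1 (log2 fold change -0.79, adjusted p = 1.04e-05) and to the metal importers Slc39a8 (-0.54, adjusted p = 0.00153) and Slc39a14 (-0.69, adjusted p = 0.00153).

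The cytokine receptors moved in opposite directions with EE: the interleukin 1 receptor gene rose and the interleukin 6 receptor gene fell. Il1r1 had 34, 39.9, 24.4 and 33.5 CPM in EM, 33.9, 28.7, 42.4 and 46.6 in EV, 29.6, 15, 22.4 and 9.99 in CM, and 23.8, 16.3, 12.1 and 13 in CV. The EV libraries lay above all CV libraries, and EM overlapped CM. Its log2 fold change was 1.22 ± 0.30 (adjusted p = 0.00327) in EV vs CV and 0.78 ± 0.30 (adjusted p = 0.0493) in EM vs CM, and the second call was lost under 9 of 17 alternatives (adjusted p up to 0.126), among them leaving out CM library 2, 3 or 4 or EM library 1, 2 or 4. Il6ra had 12.7, 17.4, 17.1 and 17.3 CPM in EM, 13.2, 15.7, 17.3 and 16.1 in EV, 21.5, 20.6, 24.8 and 23.1 in CM, and 29.1, 25.2, 24.6 and 24.6 in CV. Every library with EE lay below every library without it. EV vs CV gave a log2 fold change of -0.73 ± 0.12 (adjusted p = 8.79e-05), and EM vs CM one of -0.48 ± 0.12 (adjusted p = 0.00416), and both calls were lost when libraries were scaled by their totals (adjusted p = 0.0663 and 0.458).

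Stat3, the transcription factor activated by the interleukin 6 receptor, had 80.2, 100.3, 78.3 and 71.2 CPM in EM, 85.9, 81, 66.8 and 96.1 in EV, 115, 64.8, 83.1 and 58.5 in CM, and 75.5, 48, 56.1 and 66.2 in CV. The groups overlapped in every comparison. In EV vs CV its log2 fold change was 0.42 ± 0.20 (adjusted p = 0.0873), and in EM vs CM it was 0.04 ± 0.20 (adjusted p = 0.902). Socs3, the feedback inhibitor of that pathway, was not called either (0.33, adjusted p = 0.39, and -0.46, adjusted p = 0.252).

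Around these receptors, 35 further cytokine receptor and signalling genes were tested. In EV vs CV, 18 rose and 8 fell, against 25.5% and 24.9% of all genes tested. In EM vs CM, 12 rose and 8 fell, against 19.4% and 18.6%. The smallest p-values in EV vs CV belonged to Lifr, Stat5a and Il1rap. Lifr, the receptor for leukaemia inhibitory factor, averaged 1356 ± 127 CPM in EM, 1738 ± 180.4 in EV, 93.5 ± 17.2 in CM and 123 ± 14 in CV (SD, n = 4 each), with a log2 fold change of 3.82 ± 0.15 (adjusted p = 1.39e-10) in EV vs CV. Stat5a, a transcription factor of growth hormone and prolactin signalling, rose by a log2 fold change of 3.45 ± 0.26 (adjusted p = 7.19e-08). Il1rap, the accessory protein that IL1R1 needs to signal, averaged 23.7 ± 3.22 CPM in EM, 14.9 ± 2.18 in EV, 55.5 ± 17.4 in CM and 69.5 ± 8.92 in CV. It fell by 2.23 ± 0.20 on the log2 scale in EV vs CV (adjusted p = 4.59e-07), the opposite direction to Il1r1.

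In the complement cascade, genes for the starting steps and the convertases fell with EE. Of 8 such genes, 0 rose and 6 fell in EV vs CV (median log2 fold change -1.11), against 25.5% and 24.9% of all genes tested. In EM vs CM, 0 rose and 7 fell (median -0.64), against 19.4% and 18.6%. Outside the list, C1qa, C1qb, C1qc, Fcna and Cfp rose in both EE comparisons and C1ra and C1s1 fell (counts are given below). The lectin pathway gene Mbl1 (ENSMUSG00000037780), for a mannose-binding lectin, had 85.2, 95.6, 88 and 93.6 CPM in EM, 53.8, 54.6, 58.7 and 62 in EV, 228, 123, 236 and 164 in CM, and 254, 197, 162 and 183 in CV. The EV libraries were lowest, EM lay above them, and all libraries with EE lay below all libraries without it. Fitted log2 fold changes were -1.80 ± 0.18 (adjusted p = 1.15e-06) for EV vs CV and -1.05 ± 0.18 (adjusted p = 0.000262) for EM vs CM.

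Masp2, the protease that mannose-binding lectins carry and that cuts C4 and C2, had 108, 128, 135 and 130.1 CPM in EM, 97.3, 85.9, 94.1 and 112 in EV, 241, 186, 238 and 213 in CM, and 210.3, 209, 214 and 217 in CV. The 4 CV libraries differed by 1.04-fold at most, and no library with EE reached them. On the log2 scale the difference was -1.13 ± 0.0995 (adjusted p = 3.62e-07) for EV vs CV and -0.81 ± 0.0989 (adjusted p = 1.85e-05) for EM vs CM. Masp1, the companion protease, was not called (-0.13, adjusted p = 0.324, and -0.18, adjusted p = 0.201).

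Mbl2, the second mannose-binding lectin gene, had 611, 487, 406 and 312 CPM in EM, 424, 426, 593 and 362 in EV, 601, 806, 642 and 661 in CM, and 735, 708, 663 and 669 in CV. EV lay below CV without overlap, and EM overlapped CM through EM library 1. It changed by a log2 fold of -0.62 ± 0.18 (adjusted p = 0.00983) in EV vs CV, and of -0.58 ± 0.18 (adjusted p = 0.0196) in EM vs CM. With library totals as the scaling neither was called (adjusted p = 0.527 and 0.371). The EM vs CM call was also lost in a fit of only the groups compared. Leaving out CM library 2 (adjusted p = 0.0579) or EM library 3 (adjusted p = 0.0551) lost that call as well.

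C2, a protease of the C3 convertase of the lectin and classical pathways, had 45, 48.7, 53.5 and 55.8 CPM in EM, 38.6, 41, 46.1 and 33.8 in EV, 80, 59.7, 91.6 and 80.8 in CM, and 91.9, 77.8, 78.8 and 93.7 in CV, and the libraries with EE lay below all those without it. Expressed as log2 fold changes, EV vs CV gave -1.10 ± 0.13 (adjusted p = 4.98e-06) and EM vs CM -0.62 ± 0.13 (adjusted p = 0.00132). C4b, the other part of that convertase, had 498, 445, 398 and 463 CPM in EM, 352, 366, 362 and 403 in EV, 1002, 470.0, 825 and 547 in CM, and 1231, 596, 637 and 797 in CV. EV lay below CV without overlap, while EM library 1 exceeded CM library 2. Its log2 fold change was -1.14 ± 0.24 (adjusted p = 0.000976) in EV vs CV and -0.66 ± 0.23 (adjusted p = 0.038) in EM vs CM, and the second call was lost under 10 of 17 alternatives (adjusted p up to 0.335), among them leaving out CM library 1 or 3 or any EM library.

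Cfb, factor B of the alternative pathway, had 627, 754, 643 and 748 CPM in EM, 528, 439, 513 and 524 in EV, 1244, 978, 1215 and 946 in CM, and 1369, 1070.3, 1013 and 1099.6 in CV. The groups fell into 3 bands: EV lowest, EM above it, and CM with CV highest and overlapping. EV vs CV gave a log2 fold change of -1.18 ± 0.12 (adjusted p = 1.42e-06), and EM vs CM one of -0.66 ± 0.12 (adjusted p = 0.000516). C3, on which all pathways meet, had 3383, 3853, 3293 and 3437 CPM in EM, 3293, 3125, 3148 and 3865 in EV, 7469, 4085, 5078 and 3616 in CM, and 5076, 3364, 4022 and 4625 in CV. CM library 1 was the highest, and the groups overlapped. In EV vs CV its log2 fold change was -0.35 ± 0.19 (adjusted p = 0.136), and in EM vs CM it was -0.54 ± 0.19 (adjusted p = 0.0339), and the second call was lost under 8 of 17 alternatives, among them leaving out CM library 1 (-0.29, adjusted p = 0.141), CM library 3 or EM library 1, 3 or 4.

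Cfi, the plasma protease that inactivates C3b and C4b, had 272, 338, 351 and 371 CPM in EM, 266, 231, 267 and 283 in EV, 693, 740.1, 683 and 545 in CM, and 652, 518, 629 and 659.7 in CV. The libraries with EE were all below those without. Fitted log2 fold changes were -1.23 ± 0.12 (adjusted p = 9.07e-07) for EV vs CV and -1.0 ± 0.12 (adjusted p = 1.51e-05) for EM vs CM. The summed hepatocyte markers were lower in the same libraries, and their part in these falls was not tested.

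**Figure D3:**
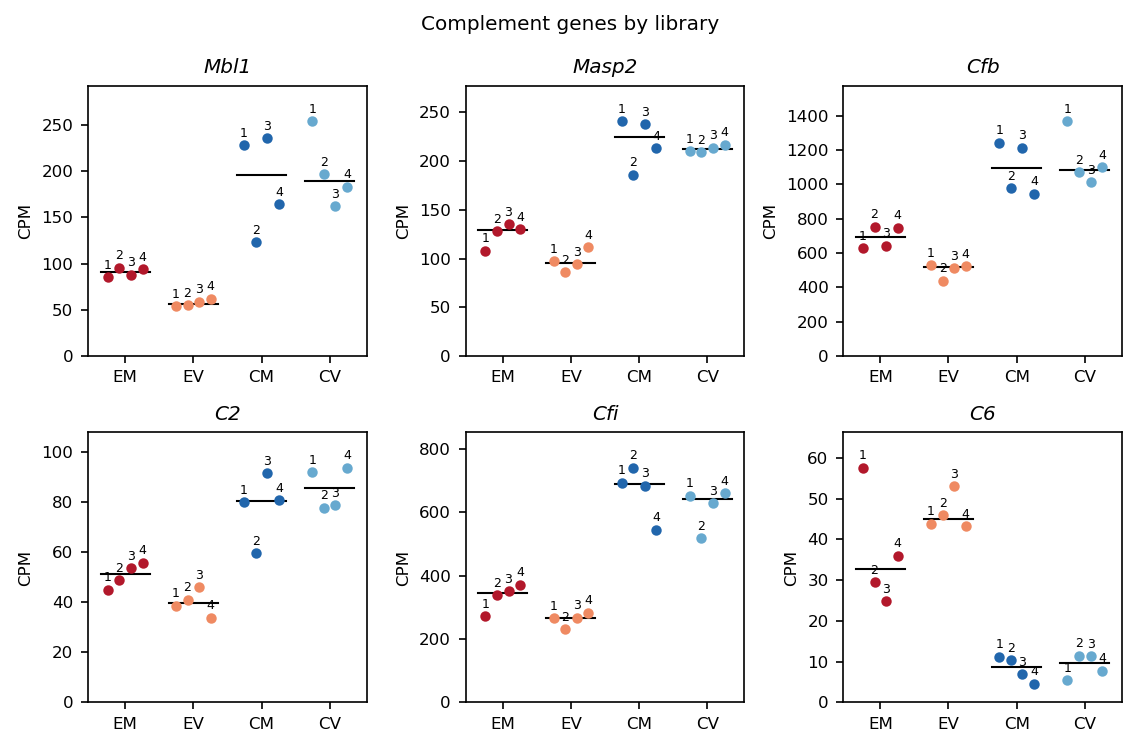
CPM of 6 complement genes in each library (points, numbered by replicate), by group from EM, EV and CM to CV, on linear axes from 0, with a black line at the group median. Mbl1, Masp2, Cfb, C2 and Cfi are lower in EM and EV than in CM and CV, and C6 is higher.

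Terminal complement genes split: of 6, C6 and C8b rose and C8g and Hc fell, in both EV vs CV and EM vs CM. Of all genes tested, 25.5% rose and 24.9% fell in EV vs CV, and 19.4% rose and 18.6% fell in EM vs CM. C6 (ENSMUSG00000022181), an early component of the membrane pore, had 57.6, 29.5, 24.8 and 36 CPM in EM, 43.9, 45.9, 53 and 43.3 in EV, 11.2, 10.4, 6.94 and 4.57 in CM, and 5.41, 11.5, 11.4 and 7.78 in CV. No library with EE overlapped one without it. On the log2 scale the difference was 2.37 ± 0.31 (adjusted p = 1.89e-05) for EV vs CV and 2.17 ± 0.31 (adjusted p = 8.49e-05) for EM vs CM, next to Saa3 the largest rise among the 38 genes in EV vs CV. The 3 genes of complement C8, whose chains form 1 protein, differed: C8b rose, with 0.78 ± 0.22 (adjusted p = 0.00701) in EV vs CV and 0.92 ± 0.22 (adjusted p = 0.00336) in EM vs CM. C8g fell, with -0.94 ± 0.12 (adjusted p = 1.02e-05) and -0.43 ± 0.12 (adjusted p = 0.0083), although its second call was lost with library totals (adjusted p = 0.682). C8a was not called (-0.30, adjusted p = 0.571, and -0.10, adjusted p = 0.879).

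Hc, which encodes C5, had 317, 304, 304 and 315 CPM in EM, 277, 267, 281 and 289.9 in EV, 688, 403, 643 and 387 in CM, and 654, 444, 484 and 550.3 in CV. The EM and EV libraries were tightly grouped and lay below all CM and CV libraries. It changed by a log2 fold of -0.94 ± 0.17 (adjusted p = 0.00028) in EV vs CV, and of -0.77 ± 0.17 (adjusted p = 0.00196) in EM vs CM. With library totals the EM vs CM call was lost (adjusted p = 0.0538), as was that of C2 (adjusted p = 0.124). C9, which polymerises to form the pore, was not called (0.09, adjusted p = 0.817, and 0.07, adjusted p = 0.881).

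Of 26 other complement components, regulators and receptors tested, 13 rose and 11 fell in EV vs CV, against 25.5% and 24.9% of all genes tested. In EM vs CM, 12 rose and 9 fell, against 19.4% and 18.6%. Those that rose included C1qa, C1qb and C1qc, the receptors C3ar1, C5ar1 and Vsig4, and Itgam, genes known for their expression in macrophages and other myeloid cells; Vsig4 is also in the macrophage marker list. C4bp, a plasma regulator made by hepatocytes, rose as well (0.62, adjusted p = 0.000842, in EV vs CV and 0.37, adjusted p = 0.0313, in EM vs CM). Those that fell included the liver-made C1ra, C1s1, Serping1, Colec10 and Colec11. C1s1, the classical pathway protease, averaged 179 ± 22.5 CPM in EM, 136 ± 9.88 in EV, 324 ± 47.3 in CM and 328 ± 15.7 in CV (log2 fold change -1.27 ± 0.11, adjusted p = 3.37e-07, in EV vs CV). C1qb averaged 297 ± 64.3 CPM in EM, 342 ± 31.2 in EV, 71.9 ± 18.4 in CM and 68.8 ± 21.5 in CV (2.31 ± 0.23, adjusted p = 9.75e-07). Itgam, a chain of complement receptor 3, averaged 7.41 ± 2.79 CPM in EM, 10.4 ± 1.39 in EV, 0.714 ± 0.348 in CM and 0.696 ± 0.331 in CV (3.91 ± 0.39, adjusted p = 1.11e-06). Neutrophil markers (5 of 7 measured, Ly6g and Mpo not analysed here) summed to 54.2 to 172 CPM in EM, 57.3 to 159 in EV, 19.1 to 51.8 in CM and 4.95 to 22.2 in CV, and macrophage markers were higher in the same groups as given for Saa3. The part of these cells in the C1q and receptor values was not tested.

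Among 37 other plasma protein genes of the acute phase tested, 4 rose and 26 fell in EV vs CV, against 25.5% and 24.9% of all genes. In EM vs CM, 3 rose and 27 fell, against 19.4% and 18.6%. The list was not split by the direction each gene takes in an acute phase response, so these counts give no direction for that response. The smallest p-values in EV vs CV belonged to Serpina1d (log2 fold change -2.86 ± 0.12, adjusted p = 2.74e-10) and Serpina1b (-1.97 ± 0.10, adjusted p = 4.1e-09), alpha-1-antitrypsin genes with close copies, and to Serpinc1, antithrombin (-1.81 ± 0.0997, adjusted p = 5.73e-09). Alb, Ttr, Apoa1, Serpina1a and Tat of this list are also hepatocyte markers.

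MI763F without EE was followed by no call among the 38 genes (CM vs CV). In edgeR, 0 rose and 0 fell, 0 had an unadjusted p under 0.05, against 10.5% of all genes, and DESeq2 and limma also called 0. Over all genes tested, 0.0929% were called higher. The smallest adjusted p belonged to Cp, the copper ferroxidase (0.31 ± 0.15, adjusted p = 0.498). The median log2 fold change of the 38 genes was 0.12, with standard errors from 0.0982 (Masp2) to 1.41 (Saa2), so a difference in the wider genes was not detectable at this spread.

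In mice given EE, MI763F was likewise followed by no call in EM vs EV (edgeR, 0 higher and 0 lower, against 1.51% and 0.178% of all genes tested), while 6 of the 38 (15.8%) had an unadjusted p under 0.05, against 12.7% of all genes, a share near the background. They were complement genes, each higher in EM. Cfb had a log2 fold change of 0.47 ± 0.12 (adjusted p = 0.0659), Mbl1 of 0.66 ± 0.18 (adjusted p = 0.077) and Masp2 of 0.37 ± 0.0985 (adjusted p = 0.0819). Cfi (0.35, adjusted p = 0.18), C2 (0.35, adjusted p = 0.232) and C8g (0.31, adjusted p = 0.249) followed. DESeq2 called 3 genes higher, Cfb, Mbl1 and Masp2, and limma called 0. The shares of all genes called by DESeq2 and limma are not given here, so these counts have no background beside them. Over 17 alternatives the adjusted p ran from 0.00554 to 0.253 for Cfb (called in 4), from 0.0104 to 0.251 for Mbl1 (called in 3) and from 0.0143 to 0.292 for Masp2 (called in 3). Cfb, Mbl1, C8g, Hc, Hp and Hpx had all EM libraries above all EV libraries, and Crp had all below. That is 6 of 38 above and 1 below, against 6.56% and 3.98% of all genes. EM vs EV uses the EV libraries that EV vs CV also uses. Hepatocyte markers overlapped, with EM at 34553 to 52219.7 CPM and EV at 31124 to 39297, and their part in these values was not tested. Among the other plasma protein genes, 8 of 37 rose in EM vs EV, among them Serpina1d (0.64, adjusted p = 0.0093) and Serpinc1 (0.50, adjusted p = 0.0208).

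Whether MI763F acted differently with and without EE was tested as the interaction, (EM vs EV) minus (CM vs CV). No gene of the 38 was called (edgeR, DESeq2 and limma, 0 higher and 0 lower, against 0.101% and 0.031% of all genes tested), and 5 of the 38 (13.2%) had an unadjusted p under 0.05, against 13.6% of all genes. The smallest adjusted p belonged to Cfb (0.52 ± 0.17, adjusted p = 0.177), C8g (0.50 ± 0.16, adjusted p = 0.181) and Mbl1 (0.75 ± 0.25, adjusted p = 0.185). Between CM vs CV and EM vs EV, which share no library, 19 of 38 genes had the same sign, against 46% of all genes.

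**Figure D4:**
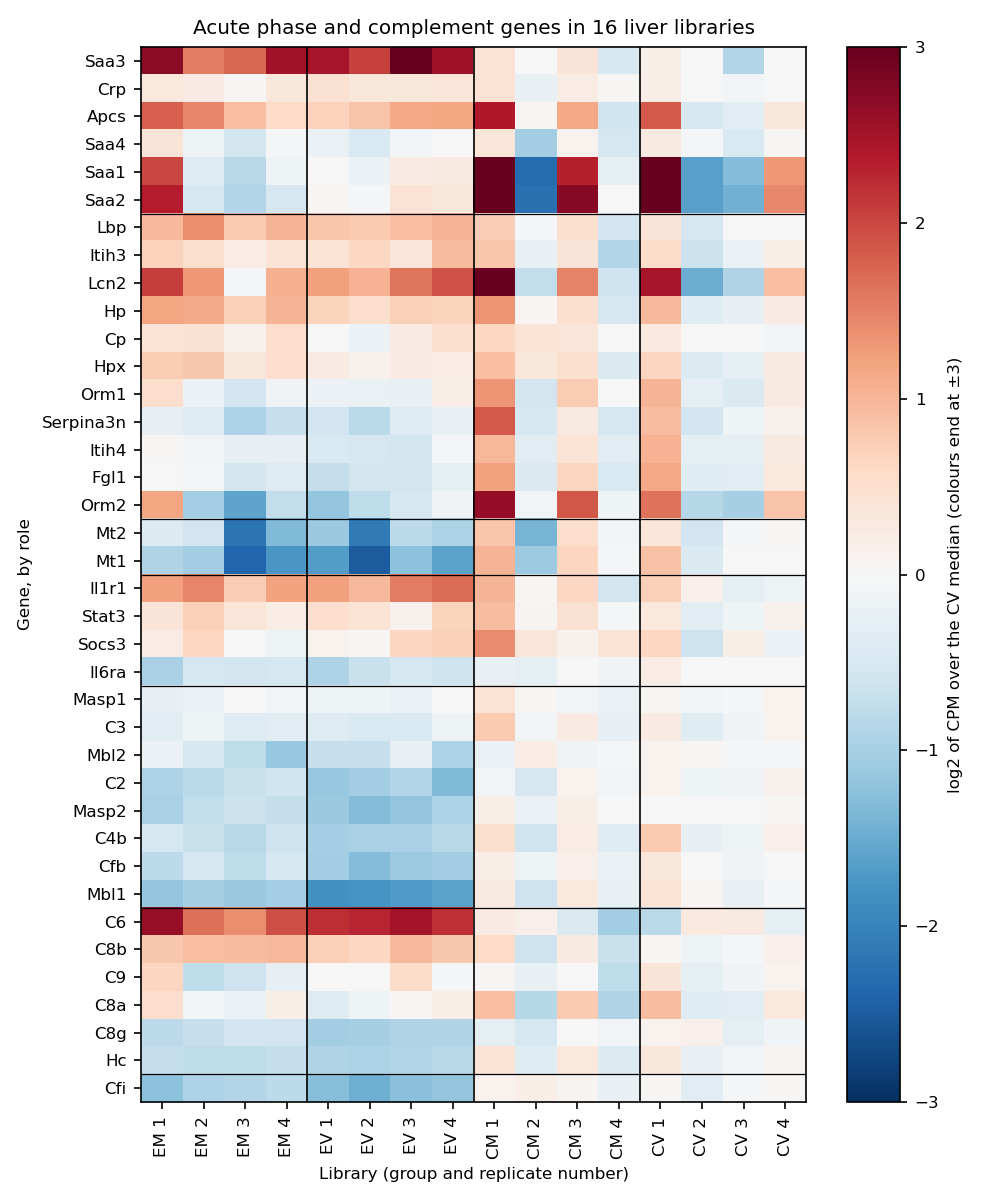
Log2 of CPM over the CV median for each of the 38 genes (down, by role) in each of 16 libraries (across, EM, EV, CM, CV), red for higher and blue for lower, with colours ending at ±3. Mbl1, Masp2, Cfb and C2 are blue across EM and EV, and Saa1, Saa2, Lcn2 and Orm2 are red in library 1 of EM, CM and CV.

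The spread between libraries was itself unequal between groups. The ratio of the highest to the lowest library of a group had a median over the 38 genes of 1.44 in EM, 1.36 in EV, 2.43 in CM and 1.95 in CV. Over all genes tested the medians were 1.37 in EM, 1.30 in EV, 1.46 in CM and 1.45 in CV. More than a 4-fold range was seen for 4 of the 38 genes in EM, 0 in EV, 8 in CM and 5 in CV, against 2.79%, 1.94%, 5.41% and 4.79% of all genes. The widest were Saa2 and Saa1: Saa2 spanned 9.49-fold in EM, 146-fold in CM and 59.5-fold in CV. In EV the widest was Mt2, at 2.55-fold.

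The same library was the highest or the lowest of its group for many of the genes at once. It did not carry the whole spread: with library 1 set aside, Saa2 still ran from 77 to 2402 CPM in CM and from 118 to 985 in CV. Library 1 was the highest of its group for 32 of 38 genes in CM and for 31 of 38 in CV, against 25.7% and 24.9% of all genes. The lowest was CM library 4 for 22 genes and CV library 2 for 24, against 26.1% and 25.6% of all genes. With EE, EM library 1 was highest for 21 and EV library 4 for 24, against 31.3% and 25.9% of all genes. The hepatocyte markers Alb, Ttr, Apoa1, Serpina1a and Tat are also in the list of other acute phase plasma proteins, so their sum is not separate from that response. Library 1 of CM held 81561 CPM of hepatocyte markers and that of CV 84041, the lowest of each group. Macrophage markers in these libraries were at 339 CPM in CM and 243 in CV, and neutrophil markers at 20.2 and 20.7. Library 1 of EM likewise had the lowest hepatocyte sum of its group (34553 CPM), but the highest macrophage sum (2011 CPM), with neutrophil markers at 122 CPM. The part of these cells in the spread was not tested. The labels give no batch or date for the libraries. The summed counts of the 38 genes were 3.2 to 5.07% of all counts in EM, 3.35 to 4.02% in EV, 2.5 to 7.36% in CM and 2.23 to 5.98% in CV.

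**Figure D5:**
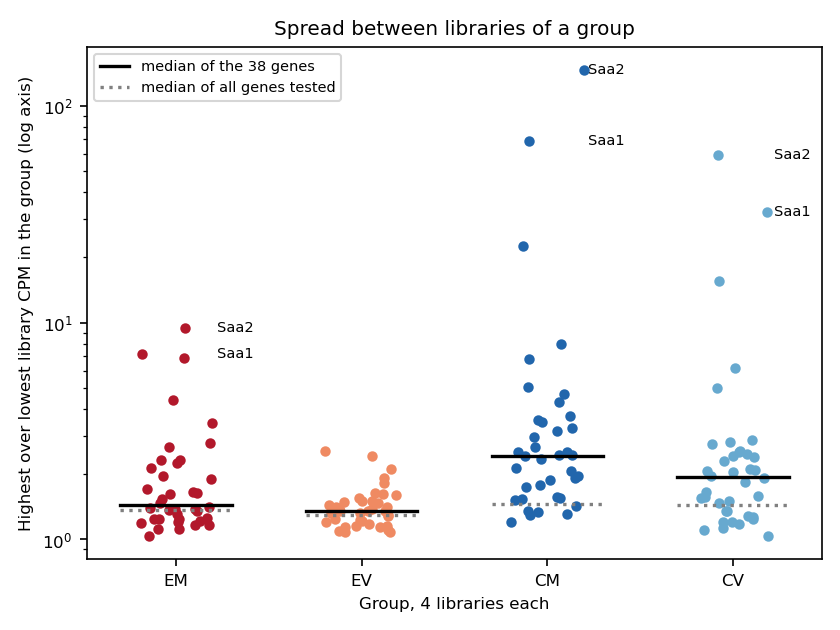
Ratio of the highest to the lowest library CPM within each group for each of the 38 genes (points, log axis), with the median of the 38 genes (solid line) and of all genes tested (dotted line). The medians of the 38 genes are 1.44 in EM, 1.36 in EV, 2.43 in CM and 1.95 in CV.

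With the CV, CM and EM libraries numbered 1 left out together, 10 genes rose in EV vs CV in place of 6, and 11 fell. In EM vs CM, 6 rose and 11 fell, with Hp added to the rises and Orm2 (-1.95, adjusted p = 0.0462) to the falls. The falls of C3 and C4b in EM vs CM were lost. The added rises in EV vs CV were Hp, Stat3 (0.54, adjusted p = 0.0201), Itih3 (0.77, adjusted p = 0.0374) and Apcs (1.11, adjusted p = 0.0347), and the 6 rises named above were kept. Leaving out libraries for their high Saa1 lowers the CV level of genes that are high with it, so these added calls are a description. Scaling by library totals, which moves all genes upward with EE, gave 12 higher and 9 lower in EV vs CV and 8 higher and 5 lower in EM vs CM. The shares of all genes called with that scaling or without those libraries are not given here, so these counts have no background beside them. Saa3, C6, Lbp, C8b, Mt1, Mbl1, Masp2, Cfb and Cfi were called in the same direction in both EE comparisons under every alternative tried.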

How the data were processed

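Per the labels' protocols, poly(A) RNA from liver was made into NEBNext Ultra libraries. GRCm39, STAR and Salmon are named in the submitters' processing notes, with no version. The table deposited by the authors holds estimated counts for 13006 genes in 16 libraries, all whole numbers. Among genes at 0 in some library, the smallest value above 0 had a median of 49 in genes shorter than 500 bp (n = 335) and of 1 in genes longer than 4000 bp (n = 29), as for values rescaled by length, so precision at low values is approximate. Symbols from an annotation of an earlier build matched 12692 identifiers. At most 3.24% of genes held equal values in any pair of libraries. How strand was handled is not given in the sources used here; no antisense gene is named.

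The 38 genes, the further gene and marker lists and the tests were chosen with earlier results of these data known. Genes were filtered with filterByExpr (12918 tested), scaled with TMM and fitted in edgeR 4.0.16 (R 4.3.3; glmQLFit, robust, 1 coefficient per group, 12 residual degrees of freedom, biological coefficient of variation 0.284). P-values were Benjamini-Hochberg adjusted over all genes, and called under 0.05. Each standard error is the log2 fold change over the root of its F statistic. Library values were given for genes called in EV vs CV at a log2 change of at least 1 and for Saa1, Crp, Stat3, Il6ra, Mt1, C3, Hc and Mbl2; Saa2, Hp, Lcn2 and Lbp were added after their values were seen, as were C4bp and Tat of the further lists. For the further lists, the 3 smallest p-values in EV vs CV were named. Alternatives were other scaling (RLE, library totals), other filters, DESeq2 1.42.0, limma 3.58.1, fits of only the groups compared, a replicate block and leaving out libraries. The code was tested on simulated data. Figures used matplotlib 3.10.9.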

Additional observations from a re-analysis of the deposited data

Results flagged for a closer look

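In each group, the highest and lowest library of each of the 38 genes was set against the other 3 by Dixon's ratio of gap to range. Of 152 gene and group pairs, 10 went past its limit for 4 libraries, where chance gives about 1 in 20. EM library 1 stood apart in 4 of them: it was high for Saa1 (3371 CPM), Saa2 (1877 CPM) and Orm2 (333 CPM) and low for Il6ra (12.7 CPM). CV library 1 was high for Saa2 (7037 CPM) and Il6ra (29.1 CPM), and CM library 1 was high for Socs3 (21.6 CPM). In EV, library 4 was high for Itih4 (2103 CPM) and Orm1 (2042 CPM), and library 3 for C9 (259.9 CPM).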

How the results depend on the processing

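Of the 34 gene calls in the EE comparisons, 23 stayed past the threshold under every alternative, 11 were lost under at least 1 and 0 changed direction. Library totals gave 12 rises in place of 6 in EV vs CV, and 8 rises in place of 5 and 5 falls in place of 12 in EM vs CM. This scaling raises the median of all genes, and no share of all genes called under an alternative is given here. Without the CV, CM and EM libraries numbered 1 together, an alternative chosen after seeing the data, 10 genes rose in EV vs CV. In EM vs EV, 0 rises became 2 with a fit of only these groups (Mbl1 and Cfb), 3 without those 3 libraries (Masp2, Mbl1 and Cfb) and 3 with DESeq2. Leaving out 1 library at a time gave 0 to 2 there, the 2 being Masp2 and Cfb without EM library 1. Over the same omissions, EV vs CV gave 5 to 7 rises and 11 to 13 falls, and EM vs CM 4 to 6 rises and 9 to 13 falls. The groups share replicate numbers. Correlations between same-numbered libraries ran from -0.0502 to 0.0957 in EV vs CV, EM vs CM, CM vs CV and EM vs EV. Of 16 libraries, 6 correlated best with their own number, and no chance value for that count is given here. Among the listed genes, library 1 was the highest of its group for 32 in CM, 31 in CV and 21 in EM. Library 1 of EV was the highest for 2. The low correlations therefore do not show that same-numbered libraries varied separately for these genes. With the replicate as a block, 6 genes rose and 12 fell in EV vs CV, 5 rose and 12 fell in EM vs CM, and 0 were called in CM vs CV, EM vs EV or the interaction; all 34 calls held. The spread of Saa1 and Saa2 in CM and CV limits what can be called for them.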

Other observations

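Markers of other liver cell types were summed in the same libraries and enter no comparison above. Cholangiocyte markers (4 of 5 measured) summed to 84.2 to 189 CPM in EM, 131 to 197 in EV, 54.4 to 77.2 in CM and 40.4 to 57.5 in CV. The sums in the groups with EE did not overlap those without. The markers did not move together: Sox9 and Spp1 were called higher in both EE comparisons, and Epcam was called lower in EM vs CM. Sinusoidal endothelium markers (6 of 6) summed to 147 to 208 CPM in EM, 194 to 212 in EV, 98.6 to 143 in CM and 69.7 to 155 in CV. Lymphocyte markers (6 of 7) summed to 20.6 to 42.7 CPM in EM, 32.4 to 39.1 in EV, 7.26 to 18.6 in CM and 5.69 to 10.1 in CV. Stellate cell markers (6 of 6) summed to 129 to 214 CPM in EM, 154 to 173 in EV, 196 to 267 in CM and 161 to 297 in CV. Among the stellate markers, Col1a1 was called higher and Dcn lower in both EE comparisons. The part of these cells in the values of the 38 genes was not tested.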
